A study of Mus musculus with 4 samples.

Results

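The genes described here are 10 markers of skin macrophages, *Adgre1*, *Cd68*, *Mrc1*, *Cd163*, *Lyz2*, *Fcgr1*, *C1qa*, *C1qb*, *C1qc* and *Mertk*. They were chosen by gene symbol, as genes known to mark these cells, and all 10 were found among the 24346 gene symbols listed for each library. Dorsal skin of C57BL/6 mice was measured by RNA sequencing in 4 libraries. The mice, males that were 8 weeks old when the diet began, received a high-fat, high-cholesterol diet with bile salt (NASH diet) for 3 weeks, either plain (Cont-IMQ, n = 2) or with added 7-ketocholesterol (7KC), an oxidized cholesterol (7KC-IMQ, n = 2). Imiquimod cream (IMQ), an agonist of Toll-like receptor 7 that induces psoriasis-like dermatitis in mice, was then applied for 1 day in both groups, so that skin without IMQ or without the NASH diet is not part of the comparison. The question was whether macrophage genes of the inflamed skin differed with 7KC in the diet.

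Macrophages of the skin take up dead cells, microbes and lipids, present antigen and release cytokines. Some settle in the dermis and renew themselves locally or slowly from blood monocytes, whereas others differentiate from monocytes that enter inflamed tissue. The markers named above cover surface receptors, enzymes and secreted proteins of both kinds of cell, and several of them are shared with monocytes, dendritic cells or neutrophils. In bulk skin, fewer macrophages and less RNA per macrophage cannot be told apart.

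The values are FPKM, read fragments scaled to the length of the transcript and to the size of the library, which can be compared between genes. A pair of values for a group always gives replicate 1 before replicate 2. Depth was estimated from the steps of low values at 15200000 and 15010000 reads in Cont-IMQ and at 16270000 and 14990000 reads in 7KC-IMQ. These are the totals implied by the FPKM scale, and whether they equal the mapped reads was not tested. All 10 markers passed the filter of a mean FPKM of 0.1, and their mean FPKM ranged from 3.63 for *Mertk* to 232 for *C1qb*. Only 2.41% of the 15896 genes tested had a higher mean FPKM than *C1qb*, and 66.4% had a higher one than *Mertk*. Estimated reads ranged from 148 to 301 for *Mertk* and were at least 574 in each library for the other 9 genes, so that counting error was at most 8.22% for *Mertk* and at most 4.17% for the others. Differences between the groups are given as 7KC-IMQ minus Cont-IMQ on the scale of log2(FPKM + 1), which understates differences of genes with low values. They were tested by limma over all genes tested, two-sided, with Benjamini-Hochberg adjustment, since an exact permutation test of 2 against 2 libraries cannot give a p-value below 0.333. A left-out range gives the lowest and the highest value of a difference or median when each library is left out in turn. Nothing in the labels says that the libraries of a group came from separate animals, and p-values then measure only the spread between these libraries, which may be technical.

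The Cont-IMQ libraries lay on opposite sides of the 7KC-IMQ libraries in genes of the growing hair follicle, with replicate 1 lowest and replicate 2 highest. The 9 hair follicle markers summed to 1323 FPKM in Cont-IMQ replicate 2, against 97.0 FPKM in Cont-IMQ replicate 1 and 377 and 332 FPKM in 7KC-IMQ. Their most abundant gene, *Krt71*, a keratin of the inner root sheath, had 34.5 and 503 FPKM in Cont-IMQ and 135 and 112 FPKM in 7KC-IMQ, and none of the 9 markers was at 0 in all libraries. With each gene centred on its mean, the list lay at -1.37 and 1.46 in Cont-IMQ and at 0.040 and -0.13 in 7KC-IMQ on the log2 scale. Over all genes tested, the root mean square difference in log2(FPKM + 1) was 0.42 between the Cont-IMQ libraries and 0.27 between the 7KC-IMQ libraries. From 7KC-IMQ replicates 1 and 2, Cont-IMQ replicate 1 differed by 0.34 and 0.40 and Cont-IMQ replicate 2 by 0.39 and 0.42, so that no single library was far from all others. Cont-IMQ replicate 2 was the highest library for most macrophage markers, and their results are given with and without it, and without Cont-IMQ replicate 1 where this changes them.

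No macrophage marker passed the adjusted threshold, and most overlapped between the groups. With each gene centred on its mean over the libraries, the mean log2(FPKM + 1) of the 10 markers was -0.088 and 0.22 in Cont-IMQ and -0.12 and -0.0093 in 7KC-IMQ. Cont-IMQ replicate 2 held the highest value of 9 of the 10 markers, all except *Mrc1*. In the mean of the 10 the other 3 libraries lay closer to each other than to it, which did not hold for each marker. A total of 2 markers, *Cd68* and *Lyz2*, were lower in 7KC-IMQ without overlap between the groups, whereas 22.9% of all genes tested were lower in this way. This count was 9 without Cont-IMQ replicate 1, against 39.1% of all genes under the same setting, and 8 without 7KC-IMQ replicate 2, against 33.5%. It was 5 with the same sum of FPKM in each library, against 32.1% of all genes, and 5 with quantile normalization, against 22.1%. The 5 with the same sum were *Cd68*, *Lyz2*, *Adgre1*, *Cd163* and *C1qa*. No marker was higher without overlap, against 23.9% of all genes, and 1 was higher without Cont-IMQ replicate 1, without Cont-IMQ replicate 2 or without 7KC-IMQ replicate 2, against 38.6%, 38.9% and 33.2%. None of the 10 passed an adjusted p-value of 0.05 in limma, against 0.00629% of all genes (1 gene), and 1 of the 10, *Lyz2*, was lower at an unadjusted p-value under 0.05, against 5.47% of all genes lower and 7.5% higher. Of all genes at this unadjusted level, 57.8% were higher as deposited and 34.2% with the same sum of FPKM in each library. The median difference of the 10 markers was -0.15, compared with -0.0056 over all genes tested. Without Cont-IMQ replicate 2 the median was 0.014, with 4 markers lower and 6 higher in mean, and it was -0.33 without Cont-IMQ replicate 1, -0.055 without 7KC-IMQ replicate 1 and -0.23 without 7KC-IMQ replicate 2. The part of hair follicle content in these differences was not tested.

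**Figure D1:**
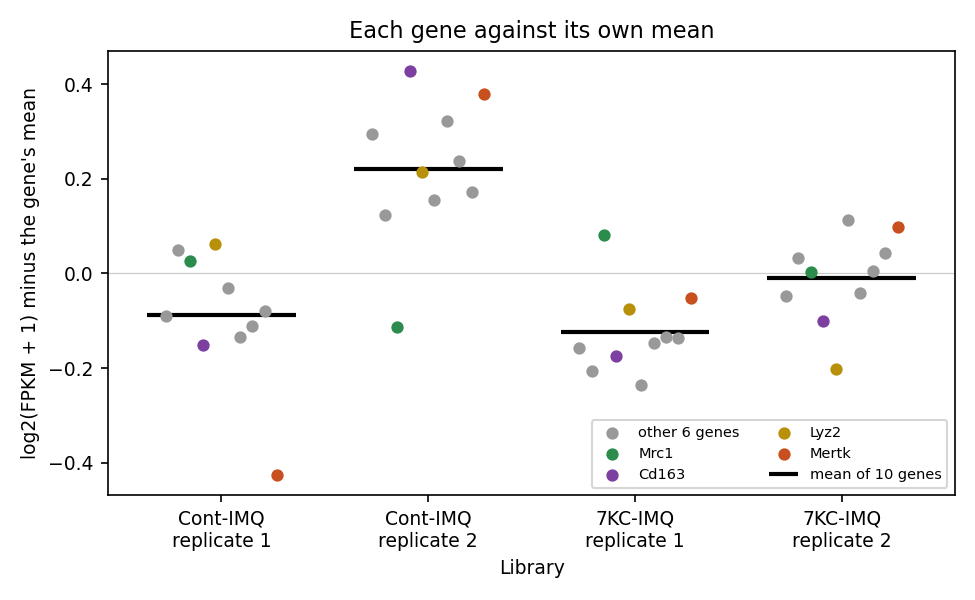
Values of the 10 macrophage markers in each library as log2(FPKM + 1) minus the mean of the same gene over the 4 libraries (vertical axis), with 1 point per gene and a black bar at the mean of the 10 genes. The bar lies at 0.22 in Cont-IMQ replicate 2 and between -0.12 and -0.0093 in the other 3 libraries.

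Promoter sequences came from a set based on RefSeq (GRCm38.p6), and this set held 8 of the 10 markers, without *C1qa* and *Adgre1*. They were searched on both strands, over the 250 bases before the annotated start, for GAGGAA (core of the motif bound by PU.1, a factor of myeloid cells), TGCTGA (part of the motif bound by Maf factors) and AGGTCA (a site of nuclear receptors), which do not overlap each other below. Of the promoters of all genes, 23.3% held GAGGAA, 16.1% held TGCTGA and 14.0% held AGGTCA, and of the 8 markers 5, 2 and 1 held them. Shown are the marker with the lowest p-value and its near copy, *Lyz2* and *Lyz1*, the other marker without overlap, *Cd68*, and the neighboring C1q genes with an entry, with the motifs on either strand in capitals. The sequences run 5′ to 3′ on the minus strand, on which each of these genes lies, and end at the base before the annotated start, except for *Lyz2* and *C1qc*, which are shown in part. They cover chr10:117282322-117282522 (*Lyz2*), chr10:117292869-117293118 (*Lyz1*), chr11:69666171-69666420 (*Cd68*), chr4:136886201-136886450 (*C1qb*) and chr4:136893066-136893164 (*C1qc*).
Lyz2: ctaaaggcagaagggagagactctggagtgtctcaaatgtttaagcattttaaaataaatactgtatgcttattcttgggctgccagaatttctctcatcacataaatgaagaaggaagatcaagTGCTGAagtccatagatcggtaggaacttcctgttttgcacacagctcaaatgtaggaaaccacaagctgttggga
Lyz1: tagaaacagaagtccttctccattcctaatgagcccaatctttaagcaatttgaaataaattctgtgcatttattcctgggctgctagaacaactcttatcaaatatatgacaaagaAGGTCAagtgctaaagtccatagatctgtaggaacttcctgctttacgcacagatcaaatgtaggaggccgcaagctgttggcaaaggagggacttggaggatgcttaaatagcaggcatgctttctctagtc
Cd68: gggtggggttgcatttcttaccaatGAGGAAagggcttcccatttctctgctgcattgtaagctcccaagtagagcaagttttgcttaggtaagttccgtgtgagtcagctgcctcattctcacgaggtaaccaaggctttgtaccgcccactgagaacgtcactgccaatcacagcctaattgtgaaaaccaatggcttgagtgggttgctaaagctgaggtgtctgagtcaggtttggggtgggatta
C1qb: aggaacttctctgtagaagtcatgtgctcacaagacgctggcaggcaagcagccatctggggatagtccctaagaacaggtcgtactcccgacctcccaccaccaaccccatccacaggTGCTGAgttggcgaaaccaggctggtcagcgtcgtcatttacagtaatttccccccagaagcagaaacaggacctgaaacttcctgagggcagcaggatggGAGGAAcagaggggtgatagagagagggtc
C1qc: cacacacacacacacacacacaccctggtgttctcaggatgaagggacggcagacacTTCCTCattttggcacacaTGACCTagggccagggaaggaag
*Lyz2* held TGCTGA, *Lyz1* held AGGTCA, *Cd68* held GAGGAA, *C1qb* held GAGGAA and TGCTGA, and *C1qc* held GAGGAA and AGGTCA, both on the opposite strand and thus shown as TTCCTC and TGACCT. A match describes these letters only. In an alignment of the whole windows, 205 of the 250 bases (82.0%) of *Lyz2* and *Lyz1* were identical.

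Of the genes for surface identity, *Adgre1* encodes F4/80, an adhesion receptor used to stain mouse macrophages. It had 49.0 and 64.3 FPKM in Cont-IMQ and 46.7 and 50.5 FPKM in 7KC-IMQ. Cont-IMQ replicate 2 was high and the other 3 libraries lay close together, and the groups overlapped, but not with the same sum of FPKM. The mean was 56.6 ± 10.8 FPKM in Cont-IMQ and 48.6 ± 2.72 FPKM in 7KC-IMQ (SD, n = 2 each), a log2 difference of -0.21 (standard error 0.15, adjusted p = 0.602 in limma), which was -0.012 without Cont-IMQ replicate 2 and -0.40 without Cont-IMQ replicate 1. *Cd68* encodes macrosialin, a glycoprotein of lysosomes and endosomes. It had 51.0 and 53.7 FPKM in Cont-IMQ and 42.5 and 50.4 FPKM in 7KC-IMQ. Both 7KC-IMQ libraries were below both Cont-IMQ libraries, although 7KC-IMQ replicate 2 was lower than Cont-IMQ replicate 1 by less than the gap between the 7KC-IMQ libraries. The log2 difference was -0.17 (standard error 0.11, adjusted p = 0.549 in limma). Without Cont-IMQ replicate 2 it was -0.14, without Cont-IMQ replicate 1 it was -0.21, and without 7KC-IMQ replicates 1 or 2 it was -0.052 or -0.29.

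*Mrc1* and *Cd163* encode scavenging receptors of resident and alternatively activated macrophages, for mannosylated glycoproteins and for haptoglobin-bound hemoglobin, respectively. *Mrc1* had 11.7 and 10.5 FPKM in Cont-IMQ and 12.2 and 11.5 FPKM in 7KC-IMQ. It was the only marker with its lowest value in Cont-IMQ replicate 2, and the groups overlapped (log2 difference 0.085, standard error 0.097, adjusted p = 0.742 in limma). This difference was 0.016 without Cont-IMQ replicate 2, 0.16 without Cont-IMQ replicate 1 and 0.010 with the same sum of FPKM in each library. The gene of a microRNA, *Mir511*, lies within *Mrc1* on the same strand. *Cd163* had 12.98 and 19.9 FPKM in Cont-IMQ and 12.8 and 13.5 FPKM in 7KC-IMQ. Here the value of Cont-IMQ replicate 2 was 1.53 times that of replicate 1, which lay between the 7KC-IMQ libraries. The log2 difference of *Cd163* was -0.28 (standard error 0.21, adjusted p = 0.613 in limma). Without Cont-IMQ replicate 2 it was 0.013, and without Cont-IMQ replicate 1 it was -0.57. The level of *Mrc1* was 23.9% and 16.4% of that of *Adgre1* in Cont-IMQ, and 26.1% and 22.8% in 7KC-IMQ.

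**Figure D2:**
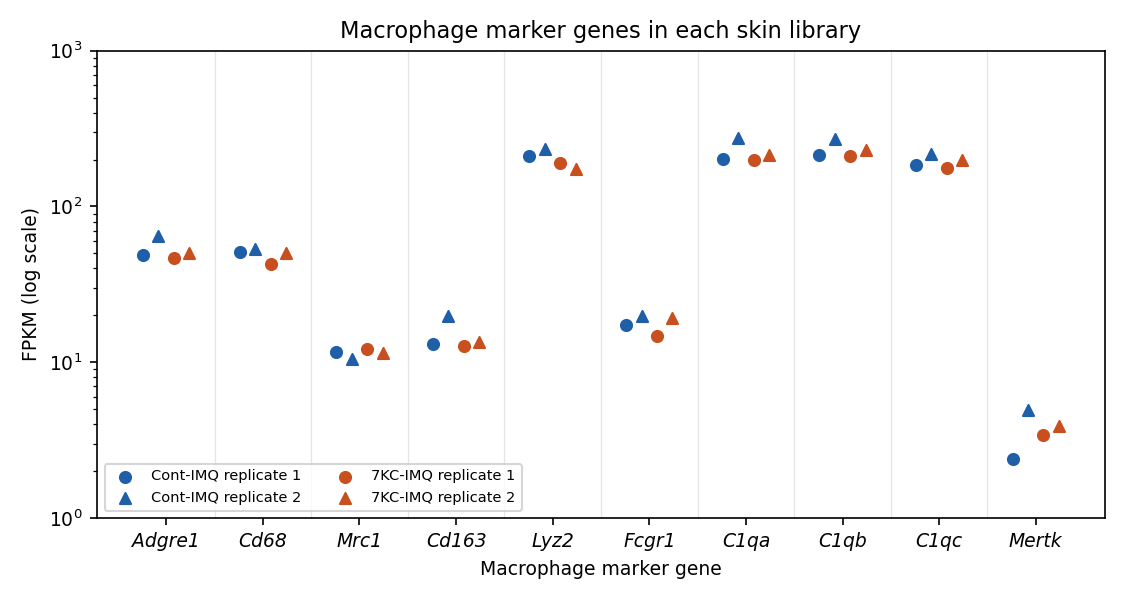
FPKM of the 10 macrophage markers on a log scale (vertical axis) in Cont-IMQ (blue) and 7KC-IMQ (orange), with circles for replicate 1 and triangles for replicate 2. Cont-IMQ replicate 2 is highest for each gene except *Mrc1*, and only *Cd68* and *Lyz2* have both 7KC-IMQ libraries below both Cont-IMQ libraries.

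*Lyz2* encodes lysozyme M, an enzyme that cleaves bacterial cell walls and is made by macrophages, monocytes and neutrophils. It had 210 and 233 FPKM in Cont-IMQ and 191 and 175 FPKM in 7KC-IMQ. Both 7KC-IMQ libraries were below both Cont-IMQ libraries, and the gap between the groups was about as wide as the spread within each of them. The mean was 222 ± 16.5 FPKM in Cont-IMQ and 183 ± 11.4 FPKM in 7KC-IMQ (SD, n = 2 each), with a log2 difference of -0.28 (standard error 0.095, unadjusted p = 0.037 and adjusted p = 0.368 in limma). The 95% interval of the ratio of FPKM + 1 in 7KC-IMQ to that in Cont-IMQ was 0.694 to 0.982, and it was the only interval of the 10 that did not include equal levels. The difference was -0.20 without Cont-IMQ replicate 2, and over all 4 left-out libraries it lay between -0.35 and -0.20. *Lyz1*, the near copy of *Lyz2* on the same chromosome, had 29.7 and 25.7 FPKM in Cont-IMQ and 24.1 and 17.97 FPKM in 7KC-IMQ. Both 7KC-IMQ libraries were again the lower ones for *Lyz1* (log2 difference -0.39, standard error 0.16, adjusted p = 0.418 in limma, left-out range -0.59 to -0.19). Of the 75-base windows of the *Lyz2* transcript, 5.96% also occur in *Lyz1*, so that some reads of the 2 genes can be exchanged.

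*Fcgr1* encodes CD64, the high-affinity receptor for IgG, which signals through the common gamma chain encoded by *Fcer1g*. It had 17.3 and 19.8 FPKM in Cont-IMQ and 14.8 and 19.2 FPKM in 7KC-IMQ. The libraries of each group differed from each other by more than the group means, and the groups overlapped for *Fcgr1* (log2 difference -0.12, standard error 0.15, adjusted p = 0.760 in limma). The difference was 0.050 without 7KC-IMQ replicate 1, -0.30 without 7KC-IMQ replicate 2, -0.031 without Cont-IMQ replicate 2 and -0.22 without Cont-IMQ replicate 1. *Fcer1g* had 163 and 194 FPKM in Cont-IMQ and 158 and 164 FPKM in 7KC-IMQ, with overlap. Of the 5 other Fc receptor genes, 1 was higher and 1 lower without overlap, against 23.9% and 22.9% of all genes tested. *Fcgr2b*, the inhibitory receptor, was higher without overlap, with 44.6 and 47.2 FPKM in Cont-IMQ and 54.3 and 54.5 FPKM in 7KC-IMQ (log2 difference 0.24, adjusted p = 0.356 in limma, left-out range 0.20 to 0.28). *Fcgrt*, which encodes the neonatal receptor that recycles IgG, was lower without overlap, with 41.0 and 50.7 FPKM against 37.7 and 30.2 FPKM (log2 difference -0.42, adjusted p = 0.381 in limma, left-out range -0.58 to -0.27).

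*C1qa* (136895917 to 136898803), *C1qb* (136880129 to 136886187) and *C1qc* (136889804 to 136893065) lie next to each other on the minus strand of chromosome 4 and encode the 3 chains of C1q, which starts the classical complement pathway and tags dying cells for uptake. *C1qa* had 201 and 276 FPKM in Cont-IMQ and 199 and 214 FPKM in 7KC-IMQ. *C1qb* had 214 and 272 FPKM in Cont-IMQ and 210 and 232 FPKM in 7KC-IMQ. *C1qc* had 183 and 219 FPKM in Cont-IMQ and 176 and 199.9 FPKM in 7KC-IMQ. The libraries had the same order in each of the 3 genes, with Cont-IMQ replicate 2 highest, then 7KC-IMQ replicate 2, Cont-IMQ replicate 1 and 7KC-IMQ replicate 1, and the groups overlapped. The sum of the 3 genes was 598 and 767 FPKM in Cont-IMQ and 586 and 646 FPKM in 7KC-IMQ, and *C1qa* made up between 33.2% and 35.96% of it. The log2 differences were -0.19, -0.13 and -0.092 for *C1qa*, *C1qb* and *C1qc* (standard errors 0.17, 0.14 and 0.12, adjusted p = 0.674, 0.737 and 0.786 in limma). Without Cont-IMQ replicate 2 they had the opposite sign, at 0.039, 0.047 and 0.034, and without Cont-IMQ replicate 1 they were -0.42, -0.30 and -0.22. With the same sum of FPKM in each library they were -0.27, -0.21 and -0.17, and the groups no longer overlapped for *C1qa*.

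Of the 10 other genes of the classical complement pathway, 9 were tested, and none passed the adjusted threshold. *C1ra* and *C1s1* encode the proteases that bind C1q. *C1ra* had 52.1 and 54.4 FPKM in Cont-IMQ and 54.2 and 49.4 FPKM in 7KC-IMQ, and *C1s1* had 76.1 and 93.3 FPKM against 83.7 and 86.3 FPKM. Both overlapped between the groups. *Serping1*, the C1 inhibitor and the most abundant of the list, had 419 and 437 FPKM against 423 and 366 FPKM, and *C3*, the central component, 115 and 192 FPKM against 141 and 118 FPKM. Of the list, 2 genes were higher without overlap, *C1qbp* (log2 difference 0.28, adjusted p = 0.359 in limma, left-out range 0.20 to 0.35), which encodes a mitochondrial protein that can bind C1q, and *Masp1*, chosen after its values were seen, and 0 were lower, against 23.9% and 22.9% of all genes tested. The median difference of the list was -0.12, and it was 0.14 without Cont-IMQ replicate 2.

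*Mertk* encodes a receptor tyrosine kinase of the TAM family, through which macrophages bind and engulf dying cells. It had 2.38 and 4.90 FPKM in Cont-IMQ and 3.38 and 3.86 FPKM in 7KC-IMQ. Cont-IMQ held both the lowest and the highest value, which differed 2.06-fold, with both 7KC-IMQ libraries between them. The log2 difference was 0.048 (standard error 0.29, adjusted p = 0.960 in limma), with a 95% interval from 0.611 to 1.75 for the ratio of FPKM + 1, in which the added 1 narrows the interval at this low level. It was 0.45 without Cont-IMQ replicate 2, and it was negative without Cont-IMQ replicate 1 (-0.36), without 7KC-IMQ replicate 2 (-0.028) and with the same sum of FPKM in each library (-0.018). *Gm14011* on the opposite strand and *Gm23172* on the same strand overlap *Mertk*. Of the read-length windows of the *Mertk* transcript, 0.0% were found to be shared with another gene. Whether the overlap reaches exons was not tested. The strand setting used for counting is not given in the sources used here, and whether reads of *Gm14011* or *Gm23172* were counted for *Mertk* was not tested.

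**Figure D3:**
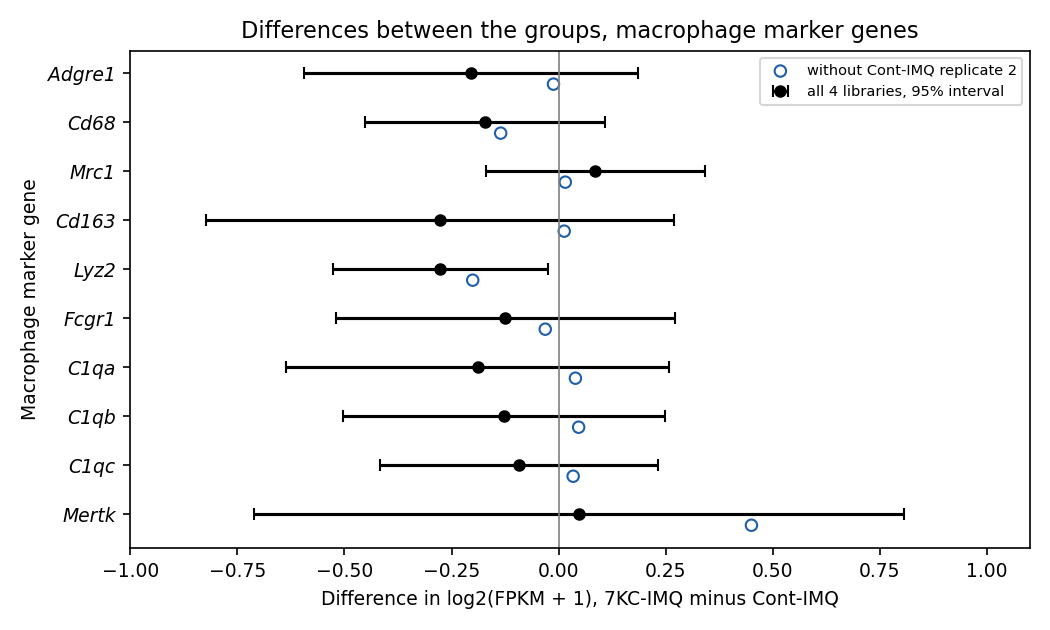
Differences in log2(FPKM + 1), 7KC-IMQ minus Cont-IMQ (horizontal axis), for the 10 macrophage markers, with 95% intervals from limma (black) and the value without Cont-IMQ replicate 2 (open blue circles). Only the interval of *Lyz2* does not include 0, and the open circles lie above 0 for 6 genes and below 0 for 4.

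The ligands and relatives of *Mertk* were among 15 genes for the uptake of dying cells, none of which passed the adjusted threshold. *Gas6*, a ligand of the TAM receptors and the most abundant of the list, had 161 and 143 FPKM in Cont-IMQ and 212 and 168 FPKM in 7KC-IMQ. *Pros1*, the other ligand, had 28.8 and 30.5 FPKM against 27.8 and 29.3 FPKM. Thus *Gas6* was higher without overlap (log2 difference 0.31, adjusted p = 0.441 in limma, left-out range 0.15 to 0.48), and *Pros1* overlapped. *Axl*, a relative of *Mertk*, had 49.3 and 49.4 FPKM against 45.5 and 42.6 FPKM and was lower without overlap, whereas *Tyro3* overlapped, with 39.8 and 31.3 FPKM against 35.7 and 45.7 FPKM. Of the 15 genes, 5 were higher and 4 lower without overlap, against 23.9% and 22.9% of all genes tested, and their median difference was -0.021, which was 0.022 without Cont-IMQ replicate 2, 0.015 without 7KC-IMQ replicate 2 and 0.013 with a filter of 1 FPKM. The largest negative difference was that of *Nr1h3*, the gene of the oxysterol receptor LXR alpha, with 10.3 and 15.8 FPKM against 10.2 and 10.2 FPKM (log2 difference -0.29, adjusted p = 0.594 in limma, left-out range -0.58 to -0.0053). Without Cont-IMQ replicate 2, the highest library, this difference was -0.0053. *Abca1*, a cholesterol exporter chosen after its values were seen, was lower without overlap, with a log2 difference of -0.29 that was -0.23 without Cont-IMQ replicate 2. *Msr1*, also chosen after its values were seen, was higher without overlap, with a log2 difference of 0.23 that was 0.20 without Cont-IMQ replicate 2. The rest of the list without overlap were *Mfge8*, *Itgav* and *Lrp1*, which were higher, and *Nr1h3* and *Elmo1*, which were lower.

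Genes for the growth and identity of macrophages were compared next. Of 6 genes of growth factors and their receptors, 2 were higher and 1 lower without overlap, against 23.9% and 22.9% of all genes tested. Their median difference was 0.13, and it was -0.015 without Cont-IMQ replicate 2. *Csf1r*, the receptor for both macrophage growth factors, had 20.1 and 17.7 FPKM in Cont-IMQ and 17.3 and 16.6 FPKM in 7KC-IMQ. Both 7KC-IMQ libraries were the lower ones (log2 difference -0.15, adjusted p = 0.572 in limma, left-out range -0.23 to -0.056), but by less than the gap between the Cont-IMQ libraries. Its ligands overlapped, with 17.4 and 14.2 FPKM against 18.7 and 14.7 FPKM for *Csf1* and 25.03 and 22.2 FPKM against 24.5 and 21.7 FPKM for *Il34*. *Spi1*, which encodes the myeloid transcription factor PU.1, had 41.9 and 42.2 FPKM against 40.1 and 41.1 FPKM, and its values in 7KC-IMQ were lower without overlap, by less than the gap between the 7KC-IMQ libraries. In contrast, *Csf2*, which encodes the cytokine GM-CSF, had 1.18 and 0.478 FPKM in Cont-IMQ and 3.98 and 2.48 FPKM in 7KC-IMQ. It was higher without overlap (log2 difference 1.21, standard error 0.27, adjusted p = 0.354 in limma, left-out range 0.93 to 1.49). The other growth factor or receptor gene higher without overlap was *Csf2rb*, named after its values were seen. It had 7.92 and 7.03 FPKM against 9.86 and 8.57 FPKM (log2 difference 0.27, adjusted p = 0.433 in limma).

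Of 15 other genes of macrophages and monocytes, 5 were lower and 1 higher without overlap, against 22.9% and 23.9% of all genes tested, and the median difference was -0.079, which was 0.033 without Cont-IMQ replicate 2 (left-out range -0.14 to 0.033). *Mpeg1*, a pore-forming protein of phagocytes, had the largest negative difference, with 37.9 and 44.0 FPKM in Cont-IMQ and 34.8 and 32.5 FPKM in 7KC-IMQ (log2 difference -0.27, adjusted p = 0.381 in limma, left-out range -0.38 to -0.17). *Cd14*, a coreceptor for lipopolysaccharide, had the largest positive difference, with 7.73 and 6.27 FPKM against 8.35 and 8.97 FPKM (log2 difference 0.28, adjusted p = 0.445 in limma, left-out range 0.15 to 0.41). None of the 15 genes passed the adjusted threshold.

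Of 15 genes of dermal resident macrophages, 5 were lower and 0 higher without overlap, against 22.9% and 23.9% of all genes tested. The median difference was -0.20. It was -0.25 without Cont-IMQ replicate 2, -0.36 without Cont-IMQ replicate 1 and without 7KC-IMQ replicate 1, and -0.084 without 7KC-IMQ replicate 2. *Vsig4*, a complement receptor, had 1.17 and 2.73 FPKM in Cont-IMQ and 0.496 and 0.700 FPKM in 7KC-IMQ (log2 difference -0.84, standard error 0.28, adjusted p = 0.366 in limma, left-out range -1.23 to -0.44). The selenoprotein P gene, listed as *Sepp1* and the most abundant of the list, had 360 and 464 FPKM against 322 and 257 FPKM (log2 difference -0.51, adjusted p = 0.372 in limma, left-out range -0.69 to -0.32). The other 3 were *Cd209f*, *Clec10a* and *Pf4*, chosen for naming after their values were seen. Other resident genes overlapped, with 15.5 and 26.1 FPKM against 19.0 and 17.8 FPKM for *Lyve1*, 26.9 and 43.3 FPKM against 24.8 and 27.6 FPKM for *Folr2*, and 2.77 and 2.56 FPKM against 3.11 and 1.67 FPKM for *Timd4*. *Igf1* had the largest positive difference of the list, with 5.43 and 3.69 FPKM against 6.22 and 4.88 FPKM (log2 difference 0.25, left-out range 0.019 to 0.48). None of the 15 genes passed the adjusted threshold.

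Of 12 genes of monocytes and recruited cells, 3 were lower and 2 higher without overlap, against 22.9% and 23.9% of all genes tested, with a median difference of -0.029 (left-out range -0.12 to -0.00089). *Ccr2*, the receptor that brings monocytes into tissue, had 5.23 and 3.71 FPKM in Cont-IMQ and 4.13 and 3.67 FPKM in 7KC-IMQ, and *Ly6c2*, a surface marker of inflammatory monocytes, 4.96 and 2.23 FPKM against 3.81 and 4.47 FPKM. The groups overlapped in both genes. *Plac8*, the most abundant of the list, had 189 and 279 FPKM against 165 and 153 FPKM (log2 difference -0.53, adjusted p = 0.381 in limma, left-out range -0.81 to -0.25), and *Ifitm6* had the largest negative difference (-0.54, adjusted p = 0.434 in limma, left-out range -0.79 to -0.28). *Clec4d*, a receptor for mycobacterial glycolipids, had the largest positive difference, with 1.33 and 2.27 FPKM against 3.45 and 3.74 FPKM (log2 difference 0.73, adjusted p = 0.356 in limma, left-out range 0.49 to 0.98). The genes of 2 chemokines that bind CCR2, *Ccl2* and *Ccl7*, were chosen after their values were seen, and other ligands of CCR2 were not compared. Both genes were higher without overlap. *Ccl2* had 78.0 and 73.9 FPKM in Cont-IMQ and 119 and 135 FPKM in 7KC-IMQ (log2 difference 0.73, adjusted p = 0.331 in limma, left-out range 0.64 to 0.82), and *Ccl7* had 95.1 and 120 FPKM against 161 and 174 FPKM (log2 difference 0.64, adjusted p = 0.352 in limma, left-out range 0.48 to 0.81).

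**Figure D4:**
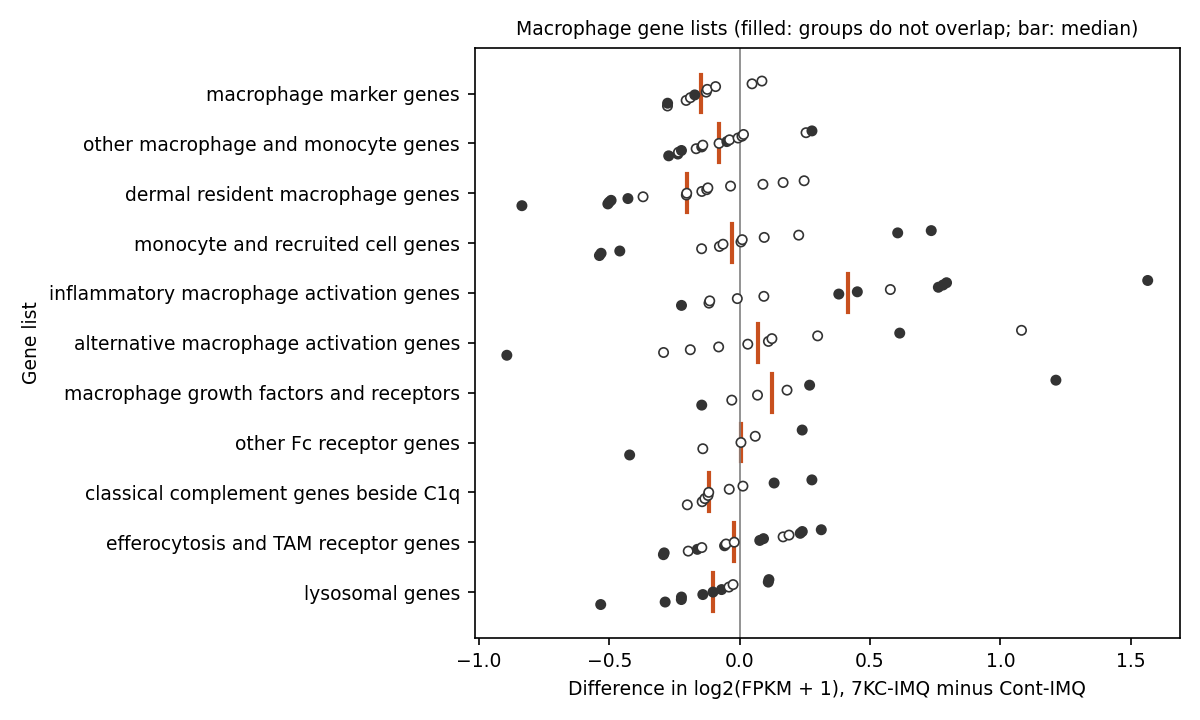
Differences in log2(FPKM + 1), 7KC-IMQ minus Cont-IMQ (horizontal axis), for each tested gene of 11 macrophage-related gene lists, with filled points for genes whose groups do not overlap and an orange bar at the median of the list. The median is -0.15 for the macrophage markers, -0.20 for the dermal resident genes and 0.42 for the inflammatory activation genes.

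Of 12 genes of inflammatory activation, 6 were higher and 1 lower without overlap, against 23.9% and 22.9% of all genes tested. Their median difference was 0.42, and it was 0.35 without Cont-IMQ replicate 2, 0.26 without 7KC-IMQ replicate 2 and 0.71 with a pseudocount of 0.1. *Il1b*, the most abundant of the list, had 11.1 and 16.4 FPKM in Cont-IMQ and 24.9 and 22.4 FPKM in 7KC-IMQ (log2 difference 0.76, standard error 0.19, adjusted p = 0.356 in limma, left-out range 0.50 to 1.03). *Il6* had the largest positive difference (1.57, adjusted p = 0.356 in limma, left-out range 1.03 to 2.102) and *Slc7a2*, an arginine transporter, the largest negative one (-0.22, adjusted p = 0.504 in limma, left-out range -0.35 to -0.10). Keratinocytes, neutrophils and other cells of the skin also express several of these genes, and which cells gave the difference was not tested. The 10 genes of alternative activation had a median difference of 0.071, which was -0.0096 with the same sum of FPKM in each library, 0.0082 with quantile normalization and 0.017 without Cont-IMQ replicate 2. *Ccl17* had the largest positive difference (1.08, left-out range 0.28 to 1.88), with overlap, and *Klf4*, the most abundant of the list, had 320 and 367 FPKM against 248 and 364 FPKM, with overlap (log2 difference -0.19, left-out range -0.46 to 0.086). None of the 22 genes passed the adjusted threshold.

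Of 11 lysosomal genes, 7 were lower and 2 higher without overlap, against 22.9% and 23.9% of all genes tested, and none passed the adjusted threshold. The median difference was -0.10, and it was -0.17 without Cont-IMQ replicate 1, -0.18 with the same sum of FPKM in each library and -0.19 with quantile normalization. *Lipa*, the acid lipase that releases cholesterol from its esters, had 10.5 and 14.0 FPKM in Cont-IMQ and 8.08 and 8.04 FPKM in 7KC-IMQ (log2 difference -0.53, standard error 0.15, adjusted p = 0.356 in limma, left-out range -0.72 to -0.34). *Ctsd*, the most abundant, had 705 and 708 FPKM against 729 and 797 FPKM, higher without overlap although its difference was -0.021 with quantile normalization. *Ctsl* had the largest positive difference (0.11), which was as low as 0.020 with other processing.

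Among other genes whose mean reached 10 FPKM, the pattern over the 4 libraries was most like the mean pattern of the markers in *Nudt4*, *AI837181*, *Slc38a2*, *Rab11fip3* and *Hnrnph3*. Their root mean square differences from it ranged from 0.0201 to 0.0262 on the log2 scale, out of 7090 genes compared. *Nudt4*, the closest, had 37.4 and 45.9 FPKM in Cont-IMQ and 36.7 and 40.5 FPKM in 7KC-IMQ. *Fcer1g* was in place 11 of this order.

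Markers of other cells were measured in the same libraries, and their counts without overlap stand against 22.9% lower and 23.9% higher over all genes tested. Of 5 genes of all leukocytes, 3 were lower and 0 higher without overlap, and the list summed to 211 and 207 FPKM in Cont-IMQ and 202 and 191 FPKM in 7KC-IMQ, with *Cd52* as the most abundant. Of 12 neutrophil markers tested, 7 were higher and 3 lower without overlap. The sum of the 14 in the files was 2698 and 2275 FPKM in Cont-IMQ and 7339 and 13908 FPKM in 7KC-IMQ, with *S100a9* as the most abundant gene, at 1293 and 1063 FPKM in Cont-IMQ and 3586 and 7010 FPKM in 7KC-IMQ. *S100a8*, at 1267 and 1037 FPKM against 3608 and 6775 FPKM, had the largest positive difference (2.11, adjusted p = 0.352 in limma, left-out range 1.65 to 2.56), and keratinocytes also express both genes. The other 12 markers summed to 138 and 175 FPKM in Cont-IMQ and 145 and 123 FPKM in 7KC-IMQ, with overlap, and most of this sum was *Il1r2*, so that it says little of the other genes. The 3 lower markers were *Il1r2*, with 102 and 127 FPKM against 100 and 76.6 FPKM, *Fpr1* and *Mmp9*, and the 5 other higher ones were *Cxcr2*, with 13.4 and 15.0 FPKM against 20.2 and 23.0 FPKM, *Csf3r*, *Retnlg*, *Camp* and *Trem1*. Of these, all except *Mmp9* were chosen after their values were seen. Of 6 endothelial markers, 5 were lower and 0 higher without overlap, and their sum was 54.7 and 60.8 FPKM against 46.2 and 43.8 FPKM, with *Pecam1* as the most abundant and none at 0. Of 6 mast cell markers, 3 were lower and 0 higher without overlap, with a sum of 106 and 103 FPKM against 86.7 and 91.0 FPKM, *Mcpt4* as the most abundant and none at 0. *Lyz2* and *Cd68* were lower in the same libraries as these endothelial and mast cell markers, and the part of such cells in that result was not tested.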

How the data were processed

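Total RNA of dorsal skin was sequenced as stranded mRNA libraries of 75-base reads. Per the labels, the authors mapped reads to mm10 with TopHat2 2.1.1, Bowtie2 2.2.8 and SAMtools 0.1.18. They deposited 1 FPKM per gene symbol, computed with the Cufflinks tools (Cuffdiff 2.2.1). The paper gives other versions of TopHat, Bowtie2 and SAMtools. From the FPKM values, log2(FPKM + 1) was fitted with limma 3.58.1 in R 4.3.3 (variance trend, group only) for the 15896 genes whose mean reached 0.1 FPKM, with Benjamini-Hochberg adjustment, after a test on simulated data. Depth was estimated from genes with 1 annotated transcript and low values, 467 to 494 genes in each library. At the estimated depth, 74.9% to 76.8% of these genes lay within 0.1 of a whole read. The depth was chosen to make this share largest, so the 20% that a depth fixed beforehand would give by chance is not a level to test it against. Annotation came from GENCODE M21.

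The members and the 23 other lists were chosen with earlier results of these data known. Named were all markers, direct partners of a marker, and of each list the most abundant gene and the largest positive and negative difference where the mean reached 1 FPKM. Not every gene that this rule takes is described. Others were chosen after their values were seen. Of the list genes, 3 were not matched (*Ly6g*, *Trdc*, *Hbb-bt*).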

Additional observations from a re-analysis of the deposited data

How the results depend on the processing

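Values were recomputed with 0.1 added before the log, with a filter of 1 FPKM or none, with 3 other scalings, without the variance trend, with a replicate block, and leaving out each library, where the lone library of a group is assumed to vary like the others. The B cell list gave no value with the filter of 1 FPKM. Over all genes, 1 gene passed (*Mir24-2*, named after its values were seen), 2 with a pseudocount of 0.1, and 1 to 11 with a library left out, with 5 without Cont-IMQ replicate 2. With the same sum of FPKM in each library, 34.2% of genes at an unadjusted p-value under 0.05 were higher, against 57.8% as deposited.

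The median difference of the markers was -0.15, -0.23 with the same sum, and -0.33 to 0.014 with a library left out. The number lower without overlap was 2, 5 with the same sum, 5 with quantile normalization and 2 to 9 with a library left out, and the number higher 0 and 0 to 1. Over all genes, 22.9% were lower without overlap, 32.1% with the same sum, 22.1% with quantile normalization and 33.5% to 39.1% with a library left out, where separation is easier to reach. None of the markers passed the adjusted threshold under any alternative. Outside the left-out libraries, 1 of 80 differences of single markers changed sign (*Mertk*, -0.018 with the same sum), and with a library left out 7 of 40 did. Those were *Cd163* (-0.57 to 0.013), *Fcgr1* (-0.30 to 0.050), *C1qa* (-0.42 to 0.039), *C1qb* (-0.30 to 0.047), *C1qc* (-0.22 to 0.034) and *Mertk* (-0.36 to 0.45), and the cause was not tested. Of the 23 other list medians, 14 changed sign with a library left out, as did 23 of 74 other named genes. By construction, leaving out 1 of 2 libraries cannot move a gene's difference by more than its pooled SD, so that measure was not used as a sign of stability.

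With the replicate block, 1 gene passed, as without it, and the marker median was -0.15. Replicate numbers are shared by both groups, but nothing says that a number marks a shared source, and the correlation of the differences between replicates was 0.0651. With 2 libraries a group, small differences were not detectable: the 95% intervals of the markers reached ratios of FPKM + 1 from 0.565 to 1.75.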

Other observations

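Some genes outside the macrophage markers differed more between replicate numbers than between the groups. *Cd74*, the invariant chain of MHC class II and the most abundant of 13 Langerhans and dendritic cell markers, had 534 and 371 FPKM in Cont-IMQ and 540 and 391 FPKM in 7KC-IMQ. The whole list summed to 1373 and 973 FPKM in Cont-IMQ and 1354 and 1005 FPKM in 7KC-IMQ, with 2 genes higher and 1 lower without overlap, against 23.9% and 22.9% of all genes tested. *Mgl2*, a lectin of dermal macrophages and dendritic cells, had 26.5 and 10.4 FPKM against 24.9 and 12.7 FPKM, and *Retnla* 83.6 and 32.0 FPKM against 83.6 and 37.4 FPKM. Most of the list's sum came from *Cd74* and the MHC class II genes *H2-Aa*, *H2-Ab1* and *H2-Eb1*, and not all other markers of the list followed the replicate number. An example is *Ccr7*, with 5.28 and 5.61 FPKM against 5.83 and 4.92 FPKM. Apart from *Cd74*, the genes named here were chosen after their values were seen, and no source was found in the labels for what the replicate numbers share.

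Over all genes tested, 22.9% were lower and 23.9% higher without overlap, beside which the following counts stand. Of 5 T cell markers tested, 2 were lower and 1 higher without overlap. *Cd3g*, the most abundant, had 10.1 and 9.61 FPKM in Cont-IMQ and 7.62 and 5.59 FPKM in 7KC-IMQ (log2 difference -0.53, adjusted p = 0.356 in limma, left-out range -0.72 to -0.34). *Tek*, the endothelial receptor for angiopoietins, had 6.44 and 6.98 FPKM against 4.63 and 4.11 FPKM (log2 difference -0.52, adjusted p = 0.352 in limma, left-out range -0.59 to -0.45). Of 6 fibroblast markers, 1 was higher and 1 lower without overlap, and of 6 keratinocyte markers 1 was higher and 0 lower. Of 5 adipocyte markers, 2 were higher and 0 lower, of 6 skeletal muscle markers 2 were higher and 2 lower, and of 3 red blood cell markers tested 0 were higher and 1 lower. Of 4 B cell markers, 3 were tested, 1 was higher and 0 lower, and *Ms4a1* was listed at 0 in each library.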
